A study of Caenorhabditis elegans with 4 samples.

Results

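The 6 vitellogenin genes of Caenorhabditis elegans, vit-1 to vit-6, were followed in whole worms on a Bacillus subtilis lawn and on an Escherichia coli lawn. The members were the lines of the count tables that carry these gene names, 6 of 46881 genes listed, and all 6 were among the 14967 genes with enough reads to be tested. One group grew on a lawn of MI-OMU01, which is a B. subtilis strain of the natto kind. The other was fed OP50, the E. coli strain used as standard laboratory food. All worms were wild-type Bristol N2 hermaphrodites, 3 days old when placed on the lawns, where they stayed for 1 day on the same agar medium, and about 200 worms were taken per group. Each group gave 2 libraries of poly(A) RNA, with 17601286 and 24381952 counted reads in the MI-OMU01 libraries and 16962082 and 17327035 in the OP50 libraries.

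Vitellogenins are the yolk proteins, large lipid-carrying proteins related to the apolipoprotein B of vertebrates. In C. elegans they are made in the intestine of the adult hermaphrodite, secreted into the body cavity and taken up by growing oocytes through the receptor RME-2. The genes vit-1 to vit-5 encode the large yolk polypeptides, and vit-6 encodes a precursor that is cut into a pair of smaller ones.

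Worms fed MI-OMU01 held a different mixture of vitellogenin transcripts. In edgeR's quasi-likelihood test vit-1, vit-3, vit-4, vit-5 and vit-6 were lower and vit-2 was higher in MI-OMU01-fed worms, that is 5 of 6 lower and 1 of 6 higher, where 15.2% of all tested genes were lower and 14.6% were higher at an adjusted p under 0.05 (29.7% in either direction). At least 2-fold lower were 3 of 6, against 6.34% of all tested genes. The libraries of the foods did not overlap for any of the 6, with 5 lower and 1 higher, against 29.9% lower, 33.2% higher and 63.1% in either direction over all tested genes. The median log2 fold change of the 6 genes was -1.39, against 0.03 for all tested genes. Falls were more common among abundant genes. Of the 100 other tested genes with a mean of at least 1000 CPM (TMM-scaled counts per library size) 70 were lower and 10 higher. Their median log2 fold change was -0.42. Those 100 genes were taken by their mean over all libraries, while the members are placed here by single libraries. Above 1000 CPM stood vit-2, vit-5 and vit-6 in every library, vit-3 and vit-4 only in the OP50 libraries, and vit-1 in none. Whether abundance has a part in the count of 5 lower was not tested. The 3 least abundant members fell most, with log2 fold changes of -5.04 for vit-4, -3.38 for vit-3 and -2.03 for vit-1. The 3 most abundant, vit-2, vit-6 and vit-5, changed by less than 1 on that scale. RNA was taken from whole worms, so fewer transcribing cells and less RNA per cell cannot be told apart. Whether both libraries of a food came from different cultures is not stated in the labels, and the p-values rest on a spread between libraries that may be technical.

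Levels of different genes were compared per length, as TMM-scaled RPKM, that is reads scaled to exon length and library size. In MI-OMU01-fed worms the order was vit-2 at 6007 and 4804 RPKM, vit-6 at 3648 and 2495, vit-5 at 1196 and 900.02, vit-1 at 45.4 and 35.6, vit-3 at 38.7 and 29.1, and vit-4 at 15.1 and 9.60. Neighbours in that order did not overlap except vit-1 and vit-3, whose ranges did. In OP50-fed worms the order was vit-6 at 4242 and 4074 RPKM, vit-2 at 3733 and 3313, vit-5 at 1840 and 1716, vit-4 at 425 and 384, vit-3 at 363 and 343, and vit-1 at 175 and 154, with no overlap between neighbours. Thus vit-2 and vit-6 traded the first place, and vit-4 stood last on MI-OMU01 but above vit-3 and vit-1 on OP50. Counted by reads, with no regard to length, vit-2 was the gene with rank 1 of all genes in both MI-OMU01 libraries, and vit-6 had rank 1 in both OP50 libraries. By RPKM vit-2 had rank 2 and 5 in the MI-OMU01 libraries, and vit-6 had rank 16 and 17 in the OP50 libraries. By RPKM the rank of vit-4 was 6426 and 8040 in the MI-OMU01 libraries, against 265 and 286 in the OP50 libraries.

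**Figure D1:**
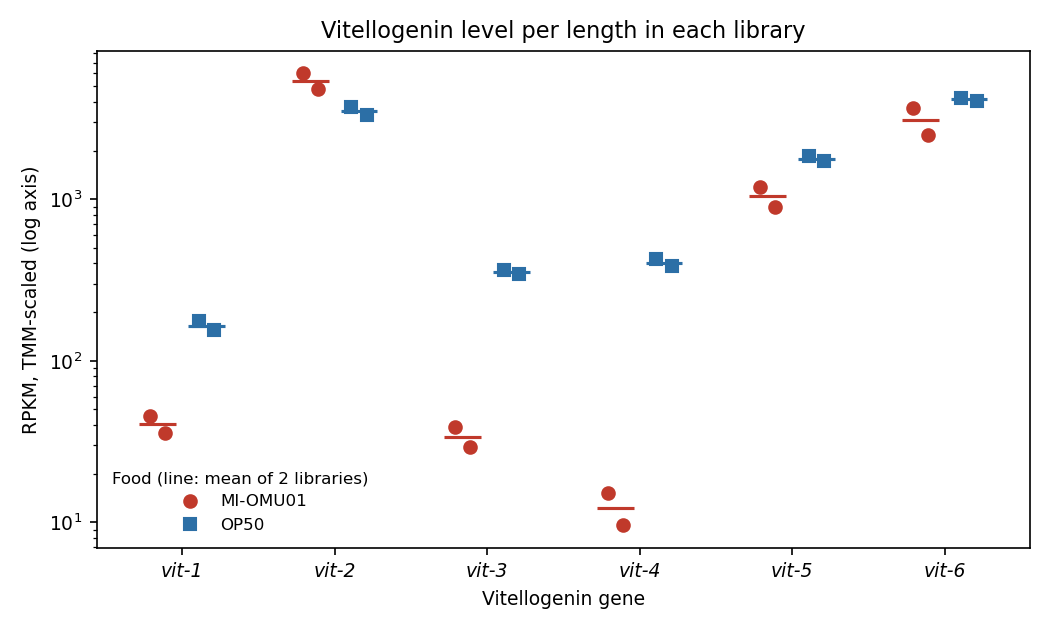
RPKM (TMM-scaled, log axis) of each vitellogenin gene in every library, circles for MI-OMU01 and squares for OP50, with a line at the mean of 2 libraries. The MI-OMU01 points of vit-1, vit-3 and vit-4 lie between 9.60 and 45.4 RPKM, below all OP50 points of these genes, while both MI-OMU01 points of vit-2 lie above its OP50 points.

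The total over the family differed little between the foods. Reads of vit-1 to vit-6 made up 5.72% and 4.30% of all counted reads in the MI-OMU01 libraries, against 5.17% and 4.72% in the OP50 libraries, so the groups overlapped (difference of means 0.0683 percentage points, exact permutation test over libraries, two-sided, p = 1). With 2 libraries against 2 this exact permutation test cannot go below p = 0.333. Fitted as 1 summed gene in edgeR, the family had a log2 fold change of -0.11 with a 95% interval of -0.37 to 0.15 (adjusted p = 0.553). The sum of vit-1 to vit-5 had a log2 fold change of 0.08 with an interval of -0.18 to 0.33 (adjusted p = 0.702). These intervals leave room for changes in either direction, and a p above the threshold does not show that the totals were equal.

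Within the family the make-up shifted, and here the libraries of a group lay close together. Of all vitellogenin reads, vit-2 took 54.4% and 57.7% in the MI-OMU01 libraries, against 34.3% and 32.9% in the OP50 libraries. The share of vit-6 was 34.0% and 30.8% in the MI-OMU01 libraries, against 40.2% and 41.6% in the OP50 libraries. The share of vit-5 was 10.7% and 10.6% in the MI-OMU01 libraries, against 16.7% and 16.8% in the OP50 libraries. No share of these 3 genes overlapped between the foods. The pair vit-3 and vit-4 together held 0.484% and 0.461% of the vitellogenin reads in the MI-OMU01 libraries, against 7.17% and 7.15% in the OP50 libraries. The share of vit-1 was 0.423% and 0.439% in the MI-OMU01 libraries, against 1.66% and 1.57% in the OP50 libraries. The exact permutation p of each of these shares was 0.333, the smallest possible. Exact binomial intervals (95%) reached at most 0.107 percentage points to either side for shares of vitellogenin reads and 0.0109 for shares of all reads. They cover counting error only, since reads without molecular identifiers are not independent molecules.

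**Figure D2:**
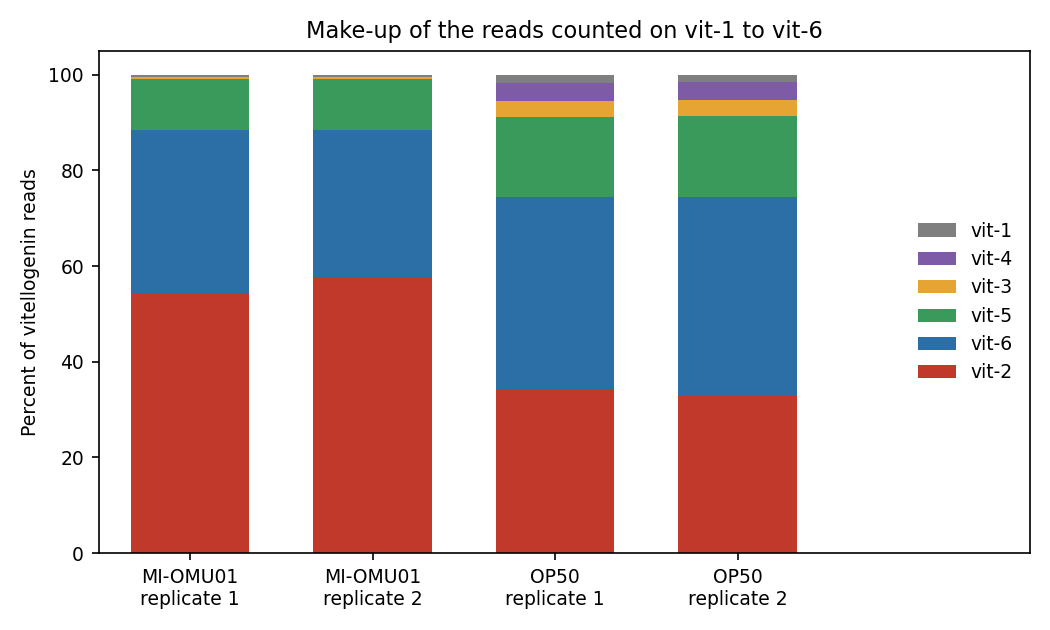
Percent of all reads counted on vit-1 to vit-6 that fell on each gene, stacked from vit-2 at the bottom to vit-1 at the top, in the MI-OMU01 libraries (left) and the OP50 libraries (right). The vit-2 part reaches 54.4% and 57.7% on MI-OMU01 and 34.3% and 32.9% on OP50, and the vit-3 and vit-4 parts are hardly visible on MI-OMU01.

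The genes vit-3, vit-4 and vit-5 are near-identical copies on chromosome X, so reads could be placed on the wrong copy, and the treatment of reads with several matches is not given in the sources used here. In build WBcel235 vit-3 (WBGene00006927) lies at 3567355 to 3572549 and vit-4 (WBGene00006928) at 3558839 to 3563974, both on the minus strand and 3380 bases apart. The third copy, vit-5 (WBGene00006929), lies on the plus strand at 3403471 to 3408603, 150235 bases from vit-4. In the Ensembl annotation all 3 are protein-coding with 6 exons and the same coding length of 4809 bases, which is 1603 codons with no stop codon counted. Their annotated 3′ untranslated regions differ, with 103 bases in vit-3, 124 in vit-4 and 48 in vit-5.

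Reads on vit-4 numbered 1359 and 1191 in the MI-OMU01 libraries, against 33739 and 30741 in the OP50 libraries. This was 73.7 and 46.8 CPM (TMM-scaled counts per library size) on MI-OMU01 and 2070 and 1872 CPM on OP50. The groups were far apart, and vit-4 had the largest fall of the family, with a log2 fold change of -5.04 (SE 0.20, 95% interval -5.47 to -4.60, adjusted p = 2.32e-09 in edgeR). By log2 fold change, lowest first, vit-4 had rank 18 of all tested genes. Its neighbour vit-3 had 3516 and 3650 reads in the MI-OMU01 libraries, against 29150 and 27745 in the OP50 libraries. This was 191 and 143 CPM on MI-OMU01 and 1788 and 1690 CPM on OP50, again without overlap (log2 fold change -3.38, SE 0.13, adjusted p = 3.96e-13). Both genes were among the 0.695% of tested genes that were called at least 8-fold lower.

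On vit-5 there were 107494 and 111545 reads in the MI-OMU01 libraries, against 146068 and 137232 in the OP50 libraries. These stood for 5827 and 4383 CPM on MI-OMU01 and 8961 and 8357 CPM on OP50, so every MI-OMU01 library was below every OP50 library (log2 fold change -0.76, SE 0.13, adjusted p = 0.000116). As counted, the copies thus fell by unequal amounts. How far misplaced reads set these amounts was not tested. Per length, vit-4 stood at 0.0126 and 0.0107 of the level of vit-5 in the MI-OMU01 libraries, against 0.231 and 0.224 in the OP50 libraries. The level of vit-3 was 0.0324 of that of vit-5 in both MI-OMU01 libraries, against 0.197 and 0.200 in the OP50 libraries. Between the adjacent pair, vit-4 stood at 0.3904 and 0.330 of vit-3 in the MI-OMU01 libraries, against 1.17 and 1.12 in the OP50 libraries. Hence by counted reads per length vit-4 was the lower of the pair on MI-OMU01 and the higher on OP50 in every library. Each of these ratios had an exact permutation p of 0.333, the smallest possible.

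A sum does not depend on how reads were split among the copies in it, but it restores no read that was dropped, and the sum of vit-3 and vit-4 still depends on the split against vit-5. The sum of vit-3 and vit-4 was 264 and 190.2 CPM in the MI-OMU01 libraries, against 3858 and 3562 CPM in the OP50 libraries. It fell by 4.03 on the log2 scale (SE 0.15, 95% interval -4.34 to -3.72, adjusted p = 9.48e-14), a 16.3-fold change. The sum of vit-3, vit-4 and vit-5 was 6091 and 4573 CPM in the MI-OMU01 libraries, against 12819 and 11919 CPM in the OP50 libraries. It fell by 1.21 on the log2 scale (SE 0.13, interval -1.48 to -0.94, adjusted p = 4.41e-07), 2.32-fold, and its groups did not overlap. In this larger sum vit-5 held most of the reads in every library. Both sums were lower at an adjusted p under 0.05 under all 12 alternatives tried.

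**Figure D3:**
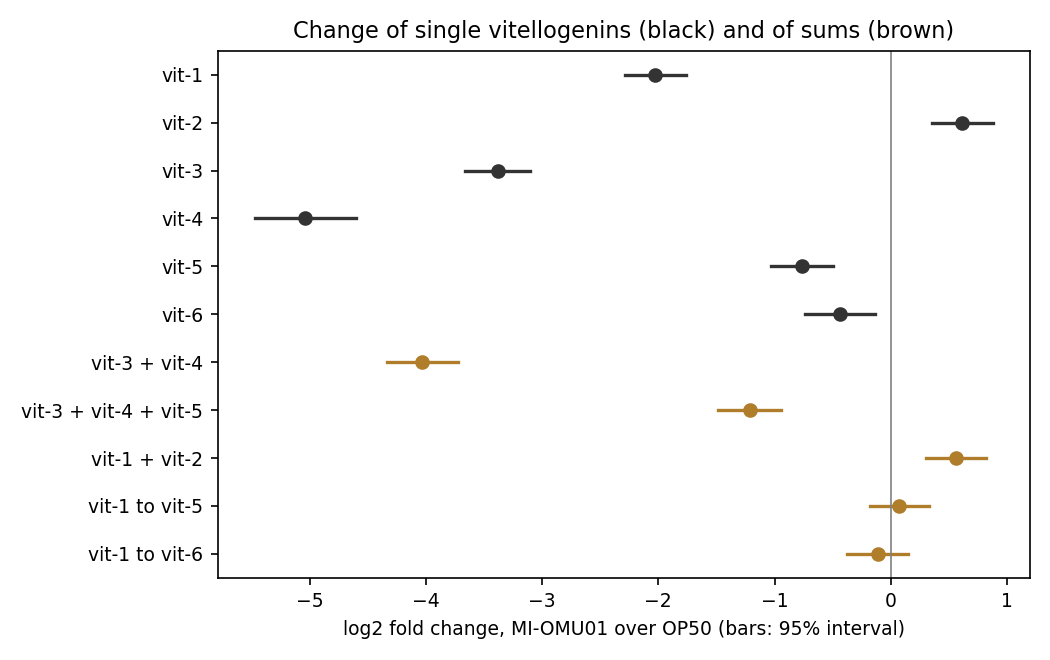
log2 fold change of MI-OMU01 over OP50 with its 95% interval from edgeR, for single genes (black) and for sums fitted as 1 gene (brown). The intervals of vit-2 and of vit-1 + vit-2 lie above 0, those of vit-1 to vit-5 and of all 6 genes include 0, and the rest lie below 0.

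The genes vit-1 and vit-2 are the second group of close copies, and their counted reads went opposite ways. On chromosome X vit-2 (WBGene00006926) lies at 5101032 to 5106173 and vit-1 (WBGene00006925) at 7727889 to 7733168, both on the plus strand with 5 annotated exons, and their coding lengths are 4839 and 4848 bases. The level of vit-1 was 231 and 181 CPM in the MI-OMU01 libraries, against 893 and 784 CPM in the OP50 libraries. It was 4.07-fold lower (log2 fold change -2.03, SE 0.13, 95% interval -2.29 to -1.76, adjusted p = 2.75e-10), and its groups did not overlap. Reads could be placed on the wrong copy here too. In the MI-OMU01 libraries 4261 and 4610 reads fell on vit-1, beside 548328 and 604902 on vit-2. How far misplaced reads set the vit-1 values was not tested.

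The level of vit-2 was 29723 and 23769 CPM in the MI-OMU01 libraries, against 18470 and 16391 CPM in the OP50 libraries. It was the only member above its OP50 level in both MI-OMU01 libraries (log2 fold change 0.62, SE 0.12, 95% interval 0.36 to 0.88, adjusted p = 0.000765). Without MI-OMU01 replicate 1 the log2 fold change was 0.44 and the adjusted p was 0.0700, so the call rested on that library. Per length, vit-1 stood at 0.00756 and 0.00741 of vit-2 in the MI-OMU01 libraries, against 0.0470 and 0.0465 in the OP50 libraries, a 6.25-fold lower ratio. Because vit-2 was so much more abundant, the sum of vit-1 and vit-2 moved with vit-2. That sum had a log2 fold change of 0.56 (SE 0.12, adjusted p = 0.00175), and it missed the threshold when MI-OMU01 replicate 1 was left out (adjusted p = 0.130).

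The member outside chromosome X, vit-6 (WBGene00006930), lies on chromosome IV at 8261134 to 8266462 on the plus strand, with 5 exons and 4953 coding bases. Its level was 18570 and 12699 CPM in the MI-OMU01 libraries, against 21594 and 20737 CPM in the OP50 libraries. The groups did not overlap, but MI-OMU01 replicate 1 lay nearer to the OP50 libraries than to its own partner. The log2 fold change was -0.44 (SE 0.14, 95% interval -0.73 to -0.14, adjusted p = 0.0252). This call was lost when MI-OMU01 replicate 2 was left out (adjusted p = 0.585), when OP50 replicate 1 or replicate 2 was (0.630 and 0.582), when libraries were scaled by total counts (0.115) and when genes under 5 CPM were filtered (0.0701). The 100 other tested genes with a mean of at least 1000 CPM had a median log2 fold change of -0.42, and 70 of them were lower, 10 higher and the rest not past the threshold. Whether abundance has a part in the vit-6 value, or in the vit-5 value of -0.76, was not tested.

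All 6 genes were lower in MI-OMU01 replicate 2 than in MI-OMU01 replicate 1. The ratio of the CPM values ran from 0.635 for vit-4 to 0.800 for vit-2, while the median over the 10118 genes with a mean of at least 5 CPM was 1.01. Only 2.60% of those genes had a ratio as low as that of vit-2 or lower. In the OP50 pair the same ratio ran from 0.878 for vit-1 to 0.960 for vit-6. Counting error was at most 2.90% of a value in any member and library, less than the spread between the libraries of either group for every member.

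**Figure D4:**
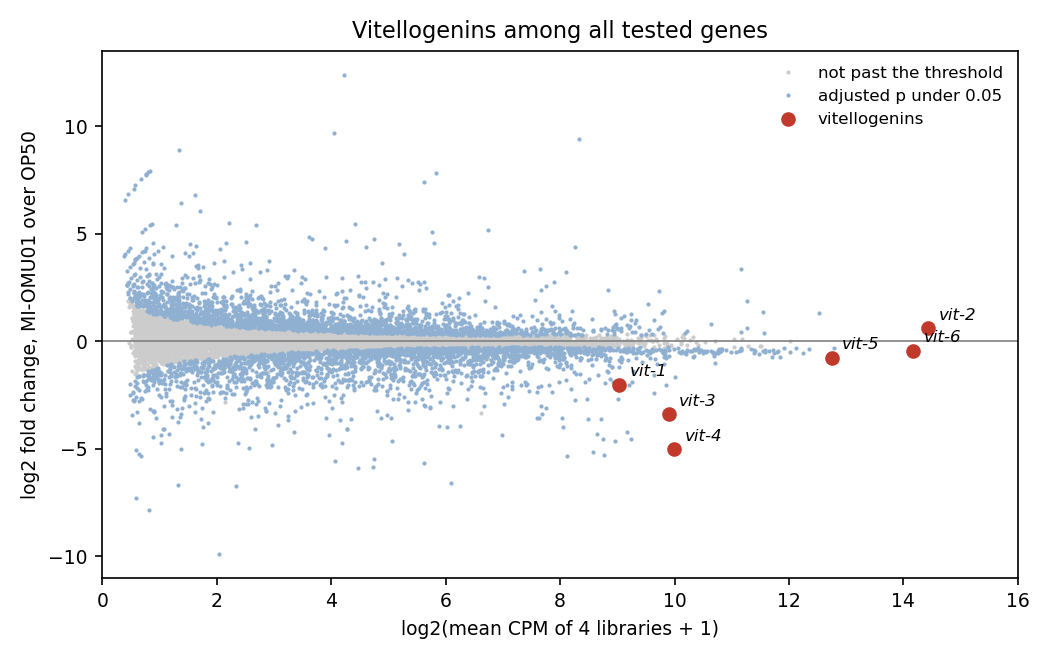
Each tested gene by log2 of its mean CPM over 4 libraries plus 1 (horizontal axis) and its log2 fold change, MI-OMU01 over OP50 (vertical axis), in blue where the adjusted p was under 0.05 and in grey elsewhere. The vitellogenins are red, and vit-4, vit-3 and vit-1 lie at -5.04, -3.38 and -2.03, while vit-5, vit-6 and vit-2 lie between -0.76 and 0.62 at the right end of the axis.

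Tested genes next to the vitellogenins gave mixed values. No protein-coding gene with a read lies between vit-3 and vit-4. On one side of the pair, rgs-7, a regulator of G protein signalling, stood at 0.04 on the log2 scale (adjusted p = 0.873), and on the other ckc-1, a choline kinase, was 1.40-fold lower (adjusted p = 0.0116). Beside vit-2, acn-1, an angiotensin-converting-enzyme-like gene needed for moulting, was 2.71-fold lower (adjusted p = 7.35e-09). Beside vit-1, the saposin-like gene spp-14 stood at 0.12 (adjusted p = 0.427) and set-12 0.51 (adjusted p = 0.0971). Beside vit-5, the chitinase gene cht-1 had -0.25 (adjusted p = 0.102) and unc-78, an actin filament regulator, -0.33 (adjusted p = 0.0923). The gene on the other side of vit-2, C42D8.9, had too few reads to be tested. So had both neighbours of vit-6, K07H8.7 and K07H8.8. Of the 2226 other tested genes of chromosome X, 19.003% were lower and 12.6% higher, against 15.2% and 14.6% of all tested genes. On chromosome IV, that of vit-6, 14.5% were lower and 14.8% higher. Non-coding genes annotated on the other strand inside vit-3, vit-4 and vit-6 had at most 2 reads in a library.

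Factors known to act on vitellogenin transcription had log2 fold changes between -0.23 and 0.82. Of 9 such genes 3 were higher in edgeR and in DESeq2, where edgeR called 14.6% of all tested genes higher and 29.7% in either direction. In either tool or at an unadjusted p under 0.05, 0 of the 9 were lower. At the threshold edgeR called 15.2% of all tested genes lower. The list had a median log2 fold change of 0.14, against 0.03 for all tested genes. The homeodomain gene ceh-60, whose product activates vit genes together with UNC-62, stood at 7.18 ± 0.411 CPM in MI-OMU01-fed worms and 4.07 ± 0.583 CPM in OP50-fed worms (SD, n = 2 each), a log2 fold change of 0.82 (SE 0.23; edgeR adjusted p = 0.00892). The intestinal GATA factor gene elt-7 rose by 0.70 on the log2 scale and the FOXO factor gene daf-16, which lowers vit expression when insulin signalling is weak, by 0.39. Without MI-OMU01 replicate 2 only elt-7 was called, as the adjusted p was 0.0789 for ceh-60 and 0.202 for daf-16. For elt-7 it was 0.0841 when OP50 replicate 1 was left out and 0.107 when MI-OMU01 replicate 1 was. For daf-16 it was 0.0556 without OP50 replicate 2. The MEIS factor gene unc-62 had a log2 fold change of -0.02 (SE 0.11, adjusted p = 0.905), the zinc finger gene pqm-1 -0.07 (SE 0.13, adjusted p = 0.729) and the GATA factor gene elt-2 0.35 (SE 0.20, adjusted p = 0.194). The Sp factor gene sptf-3 had 0.03 (adjusted p = 0.887) and lin-29, a zinc finger gene of the transition to adulthood, -0.23 (adjusted p = 0.472). The gene mab-3, which keeps vit genes off in males, had 6 to 13 reads in a library (log2 fold change 0.14, adjusted p = 0.886). The signs of unc-62, pqm-1, sptf-3 and mab-3 changed under some alternatives.

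Of 17 genes of insulin, TOR complex and DBL-1 signalling, pathways that set vitellogenin expression, 6 were higher and 0 lower (1 lower at an unadjusted p under 0.05 in edgeR, 0 in DESeq2), against 14.6% higher and 15.2% lower over all tested genes. Their median log2 fold change was 0.20. The DBL-1 pathway, a bone morphogenetic protein pathway of body size, held 4 of them. Its receptor gene sma-6 rose by 1.07 on the log2 scale (SE 0.13, adjusted p = 3.50e-06), to 53.7 ± 0.680 CPM in MI-OMU01-fed worms against 25.6 ± 3.71 CPM in OP50-fed worms (SD, n = 2 each). The Smad gene sma-4 rose by 0.84 (adjusted p = 3.74e-05) and the Smad gene sma-2 by 0.54 (adjusted p = 0.0397). The call of sma-2 was lost under 5 of 12 alternatives. The ligand gene dbl-1 stood at 0.10 on that scale (adjusted p = 0.669), with the sign turned to -0.14 without OP50 replicate 1. The genes sma-6, sma-4 and sma-2 were named as the 3 called genes of the list with the largest rise. Outside that rule, 2 more were picked for mention after their values were seen. Of these, sma-9, for a zinc finger partner of the Smads, rose by 0.36 (adjusted p = 0.0153). The insulin receptor gene daf-2 rose by 0.48 (adjusted p = 0.00125). Neither sma-9 nor daf-2 was followed singly under the alternatives. The gene rict-1, for a subunit of TOR complex 2, rose by 0.33 (adjusted p = 0.0362), a call lost under 4 of 12 alternatives, and its downstream kinase gene sgk-1 had 0.11 (adjusted p = 0.617). In this list 3 genes were higher without MI-OMU01 replicate 1 and 3 without MI-OMU01 replicate 2.

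Genes of developmental timing, some of which act on vit genes from the skin, gave 3 higher and 1 lower of 6, against 14.6% and 15.2% of all tested genes. Their median log2 fold change was 0.06. The larval-fate genes lin-28, hbl-1 and lin-14 rose by 0.49, 0.45 and 0.40, and none of the 3 was called without MI-OMU01 replicate 2, nor lin-14 without OP50 replicate 1 (adjusted p = 0.132). The gene lin-42, a Period relative whose transcript cycles with the moults, fell by 2.42 on the log2 scale (SE 0.16, adjusted p = 1.30e-08).

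Yolk secretion, uptake and breakdown genes gave 2 higher and 1 lower of 13, shares near or under the 14.6% and 15.2% of all tested genes, with a median log2 fold change of -0.03. The yolk receptor gene rme-2 stood at 466 ± 33.1 CPM in MI-OMU01-fed worms and 489 ± 103 CPM in OP50-fed worms (SD, n = 2 each), a log2 fold change of -0.07 (SE 0.13; edgeR adjusted p = 0.732). Without OP50 replicate 2 it was -0.27 (adjusted p = 0.0385), and without OP50 replicate 1 it was 0.13. The gene dsc-4, for the transfer protein that loads lipid onto lipoproteins, fell by 0.35 (adjusted p = 0.0157). The late endosome gene rab-7 rose by 0.42 (adjusted p = 0.00624) and the cathepsin L gene cpl-1, needed for yolk handling in embryos, by 0.40 (adjusted p = 0.00765). Without MI-OMU01 replicate 1 none of these 3 passed, with adjusted p-values of 0.241, 0.123 and 0.171. The fall of dsc-4 also missed the threshold when MI-OMU01 replicate 2 was left out (0.0907) and when total counts set the scale (0.130), and the rise of rab-7 when OP50 replicate 1 was left out (0.0518).

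The intestine, where vitellogenins are made, was represented in all libraries, as all 13 matched intestine markers had at least 87 reads in each. All 13 also passed the filter on low counts. Of these, 5 were higher and 3 lower (14.6% and 15.2% of all tested genes were), with a median log2 fold change of 0.05. The 5 included elt-7, also among the regulators called higher, and elt-2 was in both lists too. The summed level of all 13 markers was 10851 and 11251 CPM in the MI-OMU01 libraries, against 6241 and 6737 CPM in the OP50 libraries. Most of it was the aspartyl protease gene asp-1, at 8319 and 8553 CPM on MI-OMU01 against 3217 and 3621 CPM on OP50. The gene asp-1 rose by 1.30 on the log2 scale. Without it, the summed level of the list was lower in both MI-OMU01 libraries than in either OP50 library. The metallothionein gene mtl-2 rose by 0.998. The peptide transporter gene pept-1 fell by 1.40 and the intestinal actin gene act-5 by 0.63, and erm-1, for a linker at the gut cell surface, fell by 0.39 (adjusted p = 0.00625). The call of erm-1 was lost under 3 of 12 alternatives, when MI-OMU01 replicate 1 or replicate 2 was left out (0.134 and 0.0646) and when total counts set the scale (0.0587).

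Oocytes, the cells that take up yolk, were also represented. Their markers included rme-2, which was also in the list of yolk uptake. In edgeR 29.7% of all tested genes passed the threshold in either direction, against 0 of 18 oocyte markers. Of these markers 0 passed at an unadjusted p under 0.05 and 0 in DESeq2. Their median log2 fold change was -0.02 and their summed level was 10165 and 8995 CPM in the MI-OMU01 libraries, against 10646 and 8507 CPM in the OP50 libraries. Without OP50 replicate 2, 4 of them were lower, and without OP50 replicate 1, 2 were higher. Of 12 sperm markers 7 were tested and 2 were higher in edgeR (14.6% of all tested genes were), but 0 in DESeq2. The 7 had a median log2 fold change of 0.74, and the list had a summed level of 15.2 and 16.8 CPM in the MI-OMU01 libraries, against 11.104 and 9.87 CPM in the OP50 libraries. Without any 1 library at most 1 sperm marker was higher. Of 12 embryo markers 9 were tested, 4 were lower and 1, the homeobox gene nob-1, was higher (15.2% and 14.6% of all tested genes were), and the 9 had a median log2 fold change of -0.43. The summed embryo markers were 34.0 and 33.2 CPM in the MI-OMU01 libraries, against 45.4 and 41.7 CPM in the OP50 libraries, with elt-1, a GATA factor gene of the skin lineage, as the largest item at a log2 fold change of -0.43 (adjusted p = 0.0339). The call of elt-1 was lost under 6 of 12 alternatives, with adjusted p-values of up to 0.245 (without MI-OMU01 replicate 1), among them 0.118 without MI-OMU01 replicate 2, 0.0739 without OP50 replicate 1 and 0.135 when total counts set the scale. The call of nob-1 was lost without any 1 library, and 2 or 3 markers were then lower. No list of these markers had a member at 0 in all libraries.

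Markers of cuticle and moulting were also far lower. Of 12 genes listed, lin-42 among them, 10 were tested and all 10 were lower (15.2% of all tested genes were), with a median log2 fold change of -2.29. Their summed level was 799 and 637 CPM in the MI-OMU01 libraries, against 3382 and 3968 CPM in the OP50 libraries. The collagen gene dpy-13 had a change of -4.53 on the log2 scale, the collagen genes sqt-1 and rol-6 had -3.60 and -3.37, and col-19, a collagen gene turned on in the adult, had -3.01. For col-19 the level was 15.5 ± 6.30 CPM in MI-OMU01-fed worms and 123 ± 19.6 CPM in OP50-fed worms (SD, n = 2 each). The call of rol-6 was lost without either OP50 library (adjusted p = 0.272 and 0.275), at log2 fold changes of -3.47 and -3.32. Of 8 body wall muscle markers 6 were lower and 0 higher, also 0 in DESeq2 and at an unadjusted p under 0.05, against 15.2% lower and 14.6% higher over all tested genes. Their median log2 fold change was -0.38, and the number lower was 2 without MI-OMU01 replicate 1 and 3 when total counts set the scale. Among them unc-27 and tnt-2, both for troponin, fell by 1.09 and 0.98. The myosin gene unc-54 fell by 0.49, and missed the threshold when MI-OMU01 replicate 1 was left out (adjusted p = 0.109). The part of the cuticle, moulting and muscle genes in the vitellogenin result was not tested.

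**Figure D5:**
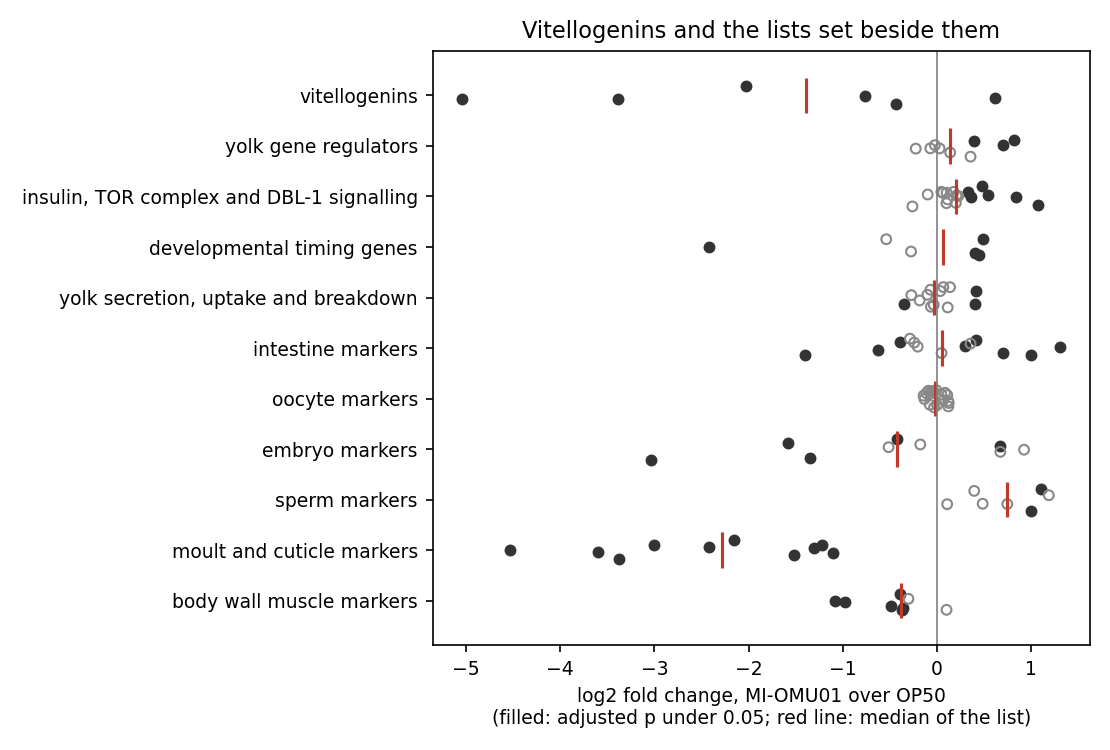
log2 fold change of MI-OMU01 over OP50 for each tested gene of the vitellogenins (top line) and of 10 gene lists, filled where the adjusted p was under 0.05, with a red line at the median of each list. The vitellogenins spread from -5.04 to 0.62, the oocyte markers gather at 0, and the moult and cuticle markers are all below 0 with a median of -2.29.

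The genes with the most similar pattern over the 4 libraries were found by Euclidean distance between centred log2(CPM + 1) values among 10112 genes with a mean of at least 5 CPM. With 2 libraries per food, this distance rests largely on the size of the difference between the foods. The nearest of so many genes are close by selection, so no link between the genes follows from it. Nearest to the sum of vit-3 and vit-4 were col-143 (distance 0.177), col-41 (0.333), col-13 (0.364), dpy-5 (0.384) and ZK180.6 (0.406). The first 4 are cuticle collagen genes. The nearest, col-143, stood at 31.2 ± 8.91 CPM in MI-OMU01-fed worms and 499 ± 79.0 CPM in OP50-fed worms (SD, n = 2 each). Nearest to vit-2 were ZK1240.3 (0.0690), skr-4 (0.106), K07H8.9 (0.107), ZK669.2 (0.107) and fbxc-45 (0.113), of which skr-4 is a Skp1-related gene and fbxc-45 an F-box gene. These 5 were of low abundance, with means of 7.33 to 13.9 CPM in MI-OMU01-fed worms and 4.07 to 9.14 CPM in OP50-fed worms.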

How the data were processed

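Poly(A) RNA of whole worms was sequenced from a stranded kit, per the labels' protocols. The authors deposited whole read counts per gene for each library, with gene positions and exon lengths. The submitters' processing notes name featureCounts 1.6.4, STAR 2.7.2b, cutadapt 2.7, Trimmomatic 0.39 and Trim Galore 0.6.5, with builds ce11 and WBcel235. The sources used here give neither the strand setting nor the treatment of reads with several matches.

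The counts were filtered (filterByExpr, minimum count 10, minimum total 15), scaled by TMM and tested with edgeR 4.0.16 in R 4.3.3 (quasi-likelihood test, group only, Benjamini-Hochberg over 14967 genes, threshold 0.05). Sums of vitellogenins replaced their members. CPM and RPKM used TMM-scaled library sizes and the deposited exon lengths. Shares were compared by exact permutation tests. Exon and coding annotation came from Ensembl's WBcel235 annotation, which matched 46794 of 46881 genes. The procedure was tested on simulated data, with 14709 genes tested. It called 45.3% of the genes changed 1.5-fold, 73.1% of those changed 2-fold and 97.0% of those changed 4-fold. It made 11 false calls. Small changes could thus be missed. Alternatives used DESeq2 1.42.0, limma 3.58.1, other scalings and filters, single libraries left out and a replicate block.

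Named genes were the vitellogenins, a set of known regulators and yolk handling genes, from each list up to 3 called genes with the largest rise and 3 with the largest fall at a mean of at least 5 CPM, and the 5 nearest patterns. The members and lists were chosen with earlier results of these data known. The libraries of a group differed by more than sampling noise.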

Additional observations from a re-analysis of the deposited data

How the results depend on the processing

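Of the vitellogenin results, vit-1, vit-3, vit-4, vit-5 and the sums vit-3 + vit-4 and vit-3 + vit-4 + vit-5 kept their direction and call under all 12 alternatives. Leaving out 1 library in turn, and assuming that the lone library varied like the other group, the log2 fold changes ran from -2.21 to -1.86 for vit-1, -3.60 to -3.19 for vit-3, -5.40 to -4.74 for vit-4, -0.99 to -0.57 for vit-5, 0.44 to 0.77 for vit-2, 0.39 to 0.71 for vit-1 + vit-2, -0.74 to -0.19 for vit-6, -0.11 to 0.23 for vit-1 to vit-5 and -0.33 to 0.075 for vit-1 to vit-6. The vit-6 value was -0.30 when total counts set the library sizes and -0.40 with a filter of 5 CPM, both missing the threshold, and the sum of all 6 genes turned to 0.020 with total counts, a scaling under which the median of all genes was 0.16 against 0.03. With replicate numbers as a block, vit-2 was at 0.61 and vit-6 at -0.46, and no vitellogenin call changed, while the cuticle genes rol-6 and dpy-13 missed the threshold (adjusted p = 0.0853 and 0.0617). The labels do not say that equal numbers share a culture, and with 2 pairs (correlation of deviations 0.211) the numbers were not taken as pairs. Without 1 library the genes called numbered 1262 to 2297 higher (1262 without MI-OMU01 replicate 2) and 1505 to 2563 lower (1505 without MI-OMU01 replicate 1), and the vitellogenins 0 to 1 higher and 4 to 5 lower. For the lists, developmental timing had 2 lower with DESeq2 size factors, limma-voom, no filter and the replicate block. Yolk secretion, uptake and breakdown had 2 lower with DESeq2 size factors, no filter and the block, and 0 with total counts, where body wall muscle had 3 lower. DESeq2 gave 3 intestine markers higher, 0 embryo markers higher and 2 lower, and 0 sperm markers higher. Without a filter there were 1 signalling gene and 5 intestine markers lower and 0 embryo markers higher, with 5 CPM 1 embryo marker lower and 0 sperm markers higher, and with the block 1 signalling gene and 6 intestine markers lower. Without 1 library the higher and lower counts were 1 to 2 and 0 for regulators, 3 to 7 and 0 to 1 for signalling, 0 to 3 and 1 to 2 for timing, 0 to 2 and 0 to 3 for secretion and uptake, 2 to 5 and 2 to 5 for intestine, 0 to 2 and 0 to 4 for oocyte, 0 and 2 to 3 for embryo, 0 to 1 and 0 for sperm, and 0 and 2 to 7 for muscle. Single genes that turned sign, none past the threshold when turned, were unc-62 (0.11 with total counts, 0.011 with 5 CPM, -0.18 to 0.10 without 1 library), pqm-1 (0.061 with total counts, -0.23 to 0.058 without 1 library), rme-2 (0.061 with total counts, -0.27 to 0.13), sptf-3 (-0.013 without a filter, -0.054 to 0.069 without 1 library), mab-3 (-0.23 to 0.60) and dbl-1 (-0.14 to 0.34). The cause of these shifts was not tested. For each vitellogenin, counting error was smaller than the spread between the libraries of either group.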
